A study of Homo sapiens with 6 samples.

Results

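The genes described here act in mitosis and at the kinetochore. They were chosen by gene symbol. The symbols cover the kinesins (KIF), centromere proteins (CENP), aurora and polo-like kinases, the CDCA genes, mitotic cyclins, spindle checkpoint genes and a set of further spindle, chromosome and cytokinesis genes. In all, 68 genes matched, with 71 rows, out of 9588 gene names in a table of 14686 genomic regions. Of 32 mitotic genes looked for by name, 27 had a row. BUB1B, TTK, CENPA, NUF2 and SPC25 had none under those names. BIRC5, CENPN and KIF1B had 2 regions each and are represented by the region with the higher mean. CDC2 is the older symbol of CDK1 and is kept as the table gives it.

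Cells enter mitosis when cyclin-dependent kinase 1, bound to cyclin A or cyclin B, is switched on by CDC25 phosphatases. Aurora and polo-like kinases then build the spindle, kinetochores tie each chromosome to its microtubules, and the spindle checkpoint holds the cell until all chromosomes are attached. The anaphase-promoting complex finally frees the sister chromatids and destroys the cyclins. Many of these genes are transcribed late in the cell cycle under promoters that carry a cell cycle genes homology region (CHR) and CCAAT boxes. Human embryonic stem cells are known for a short G1 phase and fast division.

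Reads from the 3′ ends of polyadenylated RNA make up 6 libraries of H9, a long-established line of human embryonic stem cells (hESCs), at passage 51. The hESC group holds undifferentiated cells grown on matrigel in medium conditioned by mouse embryonic fibroblasts, with 1 library labelled G1 (0 h), 1 labelled G1/S (2 h) and 1 labelled S (3 h). The endoderm group holds cells from the same passage after 6 days in activin A at 100 ng/ml, with 1 library labelled G1 (0 h), 1 labelled G1/S (3 h) and 1 labelled S (6 h). Their medium held 0%, 0.2% and then 2.0% fetal bovine serum on the first, second and later days and was changed on day 3, so medium and serum cannot be told apart from cell type. How cells were brought into phase, and from when the hours count, is not given in the sources used here. Each combination of cell type and phase stands on a single library, so the p-values measure only the spread among these libraries. The series asks how transcripts at the passage from G1 to S differ between the hESCs and the endoderm derived from them.

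Each value is called signal here: the whole reads that fall in a region, divided by a size factor of the library. A transcript gives reads at its end only, so gene length does not enter. The libraries held 2502792 to 6203079 reads, and 1 read was worth a signal of 0.591 to 1.71. Counting intervals below are 95% intervals on the reads and cover counting error only. Of the definitive endoderm markers, 9 of 9 measured rose in endoderm (median log2 difference 4.59), and their summed signal was 453 to 551 in hESC libraries and 8368 to 17360.2 in endoderm libraries. Of 8 measured hESC markers, SOX2, DNMT3B and UTF1 fell and 5 did not pass the test (POU5F1 had a log2 difference of -0.01), and their sum was 3005 to 4254 in hESC libraries and 1281 to 1709 in endoderm. Among markers of other cell types, 2 of 4 of mesoderm rose (sum 107 to 131 in hESCs, 558 to 1577 in endoderm). Of neuroectoderm, 3 of 4 rose (5961 to 9044 and 5420.1 to 11844). Of trophoblast and extraembryonic tissue, 2 rose and 2 fell of 4 (294 to 415 and 327 to 649), and of stroma 1 rose and 2 fell of 4 (7785 to 10092 and 5127 to 7502). None of the measured markers was at 0 in any library, and their part in the results below was not tested. In such bulk libraries fewer cells of a type and less RNA per cell cannot be told apart.

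The members spanned a wide range of levels. The mean signal over the 6 libraries ran from 7.57 for KIF20B, a kinesin of cytokinesis, to 2682 for KIF1C, a kinesin of vesicle transport, with a median of 49.6. Of the 68 members, 25 had a mean of at least 100 and 19 had a mean under 20. All 68 passed the filter on low values, and 11 had fewer than 3 reads in at least 1 library. Values are listed below in the order G1, G1/S and S. Differences are on the log2(signal + 1) scale, which understates the change of weakly expressed genes. Positions are as deposited, and the submitters' processing notes name the builds hg18 and NCBI36.

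Endoderm was first compared with hESCs, with phase as a term in the model. Few of these genes passed the test between the 2 cell types, and most of those that did were kinesins of transport. Of the 68 members, 1 rose and 3 fell in endoderm (limma, Benjamini-Hochberg adjusted p under 0.05), while 14.5% of all 14657 regions tested passed in either direction (6.90% higher, 7.60% lower). At an unadjusted p under 0.05 there were 13 members, against 34.2% of all regions. The median log2 difference of the members was 0.01, and that of all regions was 0.02. In all 3 phases 11 members were higher in endoderm, against 26.0% of regions, and 19 were lower, against 29.1% of regions. The plot of all members by role shows the differences with their standard errors.

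**Figure D1:**
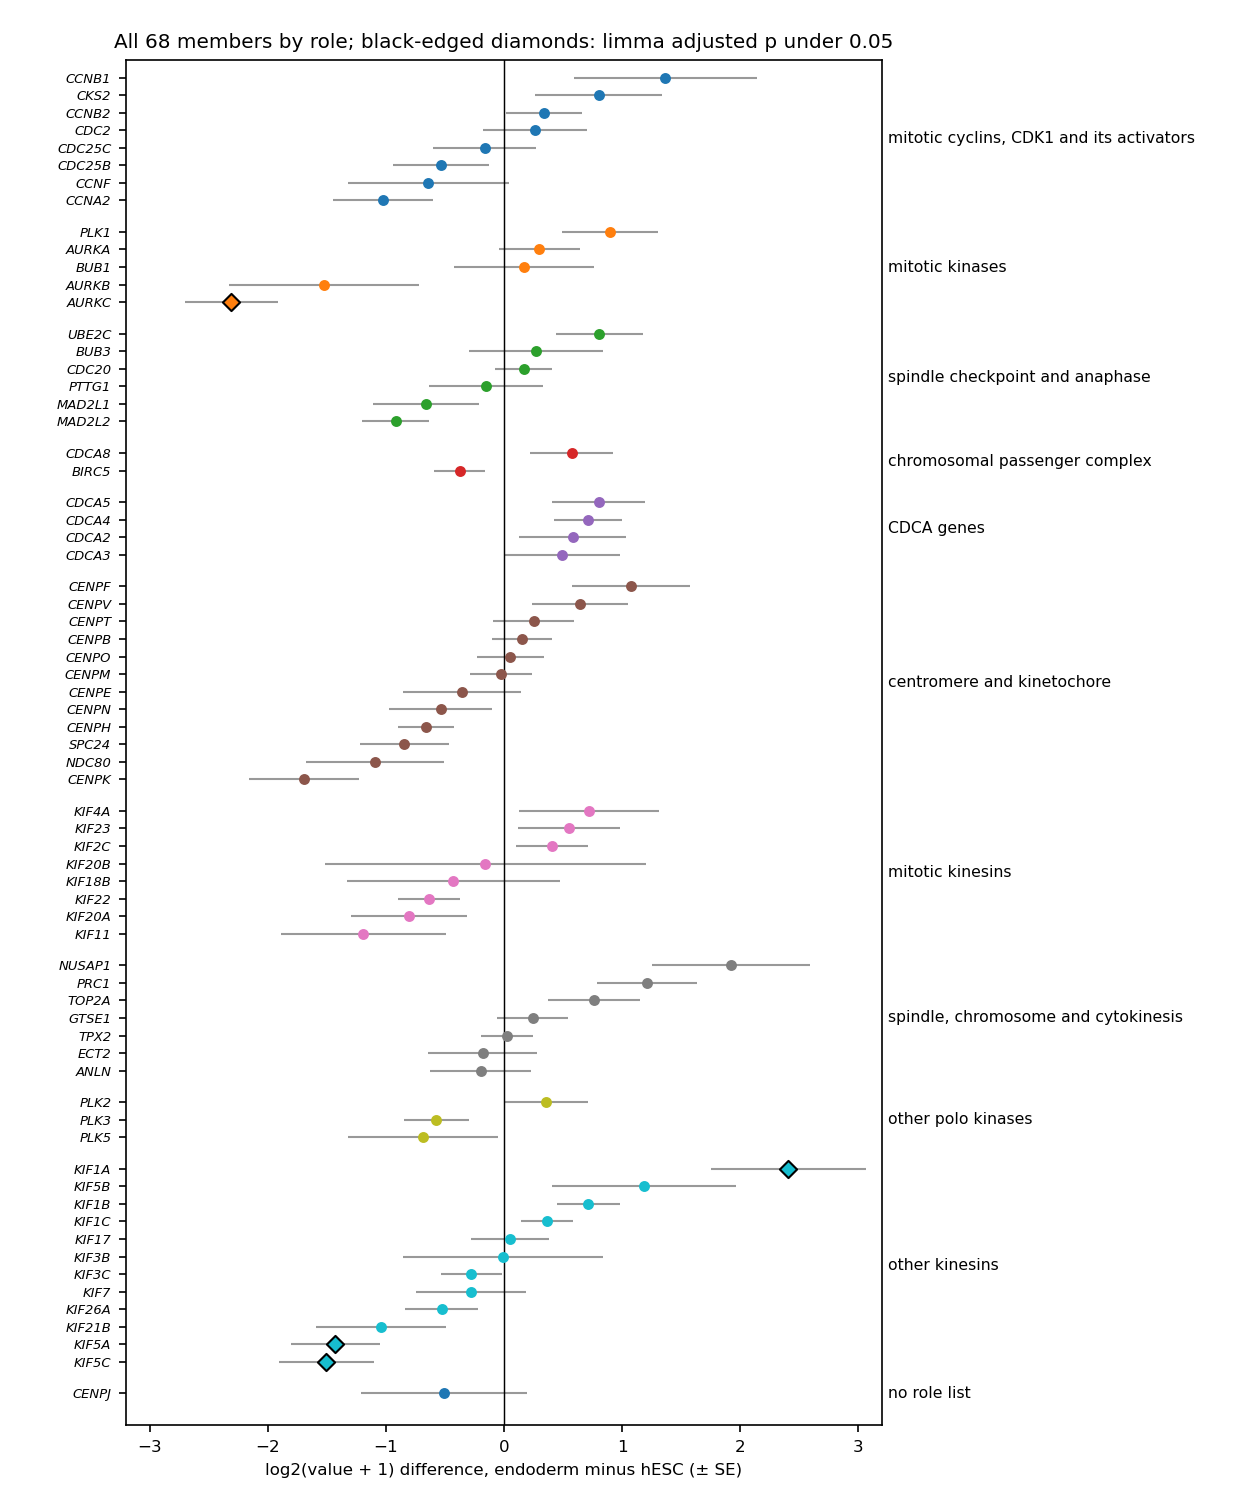
Difference between endoderm and hESC on the log2(signal + 1) scale for all 68 members, ordered by role, with the standard error of the limma fit as a horizontal bar. Black-edged diamonds mark the 4 members past the threshold: AURKC, KIF5A and KIF5C on the left and KIF1A on the right.

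AURKC, the aurora kinase best known from meiosis, had the largest fall of the members. Its region lies at chr19:62438475-62438671. The signal was 38.6, 91.6 and 60.8 across the hESC libraries and 6.90, 19.96 and 10.3 across the endoderm libraries. Every endoderm library lay below every hESC library, and in both cell types the G1/S library was the highest of the 3. The log2 difference was -2.31 ± 0.39 SE (limma adjusted p = 0.0130; edgeR adjusted p = 0.0158). Leaving aside 12 kinesins not listed as mitotic, AURKC was the only member called of 56.

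The other 3 calls were kinesins of transport. KIF5A (chr12:56266425-56266622), a conventional kinesin heavy chain of neurons, had a signal of 47.7, 88.5 and 57.9 across the hESC libraries and 19.3, 23.3 and 25.7 across the endoderm libraries (log2 difference -1.43 ± 0.38 SE, limma adjusted p = 0.0455). KIF5C (chr2:149563360-149563567), its close relative, had 107, 83.3 and 38.4 across the hESC libraries and 26.9, 23.3 and 22.3 across the endoderm libraries (-1.50 ± 0.40 SE, limma adjusted p = 0.0466). For both, all endoderm libraries lay below all hESC libraries, and the endoderm values hardly varied with phase. KIF1A (chr2:241371824-241371949), an axonal motor for synaptic vesicle precursors, had 31.8, 3.12 and 7.09 across the hESC libraries and 45.6, 28.3 and 118 across the endoderm libraries (2.41 ± 0.66 SE, limma adjusted p = 0.0499). It was higher in endoderm in each phase, but the hESC G1 value exceeded the endoderm G1/S value, so the groups overlapped. The KIF1A values in hESC G1/S and S rest on 3 and 12 reads. At G1 its counting intervals overlapped, at 22.9 to 42.95 in hESCs and 35.2 to 58.0 in endoderm. The third heavy chain, KIF5B, found in most tissues, had 90.03, 43.7 and 12.4 across the hESC libraries and 34.5, 136 and 130.1 across the endoderm libraries and a log2 difference of 1.18 (limma adjusted p = 0.311). In hESCs the G1 library was the highest and the S library the lowest, and in endoderm G1 was the lowest, so that endoderm was below hESC at G1 and above it at G1/S and S.

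None of the 4 passed when the G1/S library of hESCs, the G1/S library of endoderm or the S library of hESCs was left out, and these smaller fits called 2.86%, 3.90% and 6.65% of regions. The differences of the 3 lower members were then of similar size: AURKC was at -2.39, -2.39 and -2.23 (limma adjusted p = 0.0793, 0.0606 and 0.0549), KIF5A at -1.20, -1.20 and -1.57, and KIF5C at -1.36, -1.36 and -1.88. KIF1A moved most, to 3.35 without either G1 library and 1.67 without either S library. Without the hESC or the endoderm G1 library 7 members passed, while 15.3% and 16.0% of regions did, and KIF5C was not among the 7. Without the endoderm S library 3 members passed, against 8.19% of regions. EdgeR called AURKC alone (13.6% of regions), and DESeq2 called NUSAP1 besides the 4 (19.0% of regions).

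**Figure D2:**
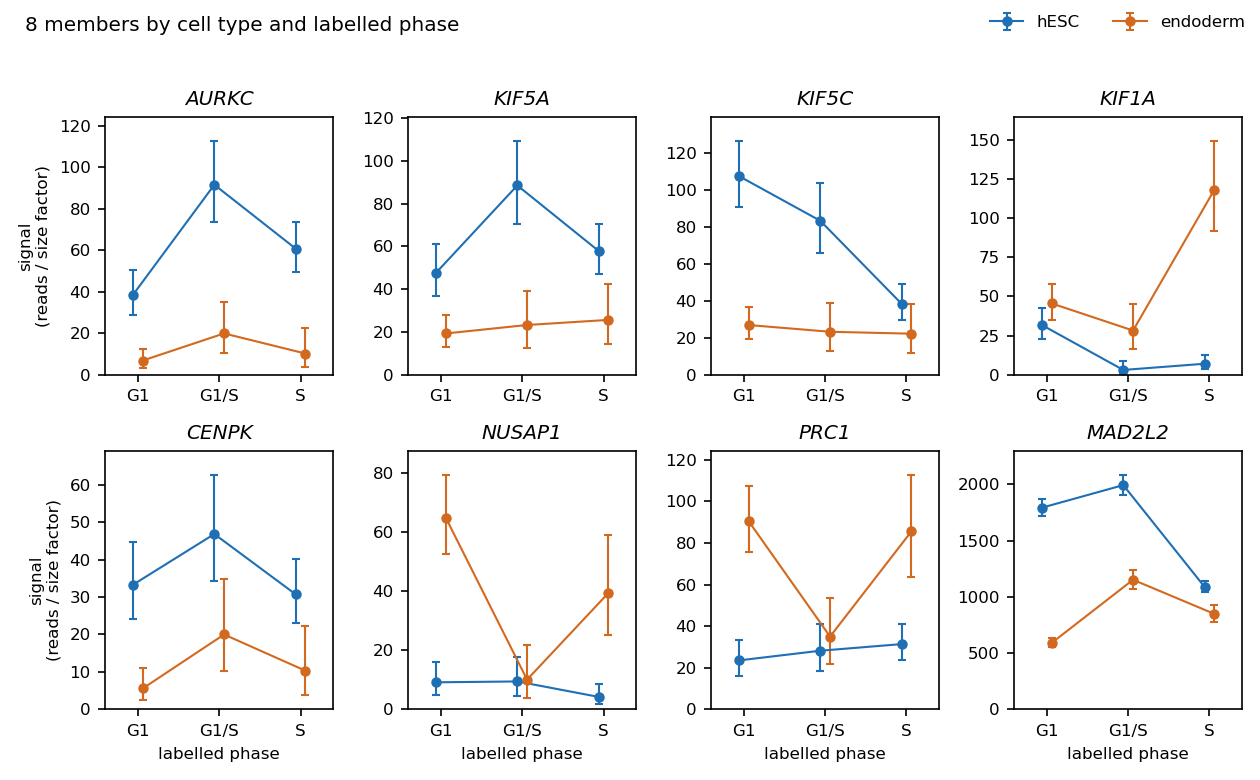
Signal (reads divided by size factor, linear axis from 0) of 8 members in the 3 labelled phases, hESC in blue and endoderm in orange, with 95% counting intervals. The endoderm libraries of AURKC, KIF5A, KIF5C and CENPK lie below all hESC libraries, and those of NUSAP1 and PRC1 lie above all hESC libraries by a narrow gap at G1/S.

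Of the mitotic cyclins, CDK1 and its activators, 0 of 8 passed between the cell types, with a median log2 difference of 0.05. CCNA2, cyclin A2, which acts in S phase and at mitotic entry, had a signal of 73.4, 31.2 and 37.8 across the hESC libraries and 45.6, 19.96 and 10.3 across the endoderm libraries. Endoderm was below hESC in each phase, yet the groups overlapped (-1.03, limma adjusted p = 0.134). CCNB1, cyclin B1, was at 2.27, 4.16 and 11.2 across the hESC libraries and 27.6, 3.33 and 27.4 across the endoderm libraries, and CCNB2, cyclin B2, at 130.1, 306 and 250.5 across the hESC libraries and 267, 258 and 296 across the endoderm libraries. Endoderm CCNB1 stood above hESC at G1 and S and at the hESC level at G1/S, and its hESC values rest on 3, 4 and 19 reads. CDC2, the kinase that both cyclins bind, was at 58.3, 58.3 and 51.98 across the hESC libraries and 93.9, 31.6 and 103 across the endoderm libraries, and in endoderm it was low at G1/S like CCNB1. The phosphatases that switch it on were CDC25B, at 469.8, 235 and 467 across the hESC libraries and 359.7, 323 and 145 across the endoderm libraries, and CDC25C, at 15.9, 42.7 and 39.6 across the hESC libraries and 24.9, 24.95 and 30.8 across the endoderm libraries. Endoderm S was the lowest CDC25B library, and the CDC25C groups overlapped. CKS2, a small subunit that CDK1 binds, was at 23.5, 9.37 and 8.27 across the hESC libraries and 31.1, 9.98 and 34.2 across the endoderm libraries, higher in endoderm in each phase with overlap between the groups (0.80, limma adjusted p = 0.323). CCNF, cyclin F, a substrate receptor of a ubiquitin ligase, was at 12.6 ± 2.96 in hESCs and 10.3 ± 7.93 in endoderm.

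Among the mitotic kinases 1 of 5 passed, which was AURKC. PLK1, the polo-like kinase of mitotic entry and spindle assembly, had a signal of 71.9, 214 and 131 across the hESC libraries and 215, 178 and 344 across the endoderm libraries (0.90, limma adjusted p = 0.165). AURKA, the kinase of spindle poles, was at 52.96, 58.3 and 119 across the hESC libraries and 77.3, 91.5 and 97.6 across the endoderm libraries, and AURKB, the kinase of the chromosomal passenger complex, at 37.1, 27.1 and 15.9 across the hESC libraries and 1.38, 16.6 and 17.1 across the endoderm libraries. AURKB in endoderm G1 rests on 2 reads, the lowest of its 6 libraries. BUB1, a checkpoint kinase at the kinetochore, stayed under 20 in every library (10.2 ± 4.66 in hESCs and 11.2 ± 3.49 in endoderm, mean ± SD, n = 3 libraries that differ in phase).

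Of the spindle checkpoint and anaphase genes, 0 of 7 passed. MAD2L2, a relative of the checkpoint protein MAD2 that also serves in DNA polymerase zeta, had the highest mean signal among them, with 1793, 1994 and 1087 across the hESC libraries and 589.7, 1151 and 847 across the endoderm libraries. It was lower in endoderm in each phase, with the hESC S value below the endoderm G1/S value (-0.92 ± 0.29 SE, limma adjusted p = 0.0704). MAD2L1, MAD2 itself, averaged 33.3 ± 4.51 in hESCs and 22.6 ± 12.2 in endoderm. CDC20, the activator of the anaphase-promoting complex that MAD2 restrains, was at 1087 ± 176 and 1264 ± 427. UBE2C, the conjugating enzyme of that complex, had 32.5, 30.2 and 28.4 across the hESC libraries and 48.3, 48.2 and 66.8 across the endoderm libraries (0.81, limma adjusted p = 0.165). All endoderm libraries of UBE2C lay above all hESC libraries without passing the test. PTTG1, securin, which guards the sister chromatids, was at 15.5 ± 5.88 and 13.9 ± 4.99, and BUB3, a checkpoint scaffold, at 12.8 ± 7.36 and 15.8 ± 7.80.

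Of 12 centromere and kinetochore genes 0 passed. CENPK, a subunit of the constitutive centromere network, came closest, at 33.3, 46.9 and 30.7 across the hESC libraries and 5.52, 19.96 and 10.3 across the endoderm libraries (-1.69 ± 0.46 SE, limma adjusted p = 0.0501), just outside the threshold that KIF1A just met. All its endoderm libraries lay below all hESC libraries. CENPF, a large kinetochore protein made late in the cycle, was at 21.9, 21.9 and 25.99 across the hESC libraries and 78.7, 18.3 and 85.6 across the endoderm libraries (1.08, limma adjusted p = 0.173). Its endoderm G1 and S libraries stood well above hESC and its G1/S library did not. NDC80, which grips the microtubule end, was at 16.2 ± 6.38 in hESCs and 7.53 ± 4.59 in endoderm, and SPC24, a partner of NDC80 in the same complex, at 147 ± 24.5 and 86.4 ± 36.2. CENPE, the kinetochore motor, had a mean of 17.9 ± 3.96 and 15.7 ± 10.6.

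Of the chromosomal passenger and CDCA genes 0 passed. BIRC5, survivin, the passenger subunit that binds centromeric histone marks, was at 1259 ± 308 in hESCs and 974 ± 263 in endoderm (-0.37, limma adjusted p = 0.257), lower in each phase. All 5 CDCA genes had a positive difference, from 0.50 for CDCA3 to 0.80 for CDCA5, which is sororin, a protector of sister chromatid cohesion. CDCA5 had a signal of 64.3, 40.6 and 53.2 across the hESC libraries and 138, 38.3 and 142 across the endoderm libraries and CDCA4 one of 222, 466 and 301 across the hESC libraries and 423, 507 and 638 across the endoderm libraries. The CDCA5 value in endoderm G1/S was the lowest of its 6 libraries, and CDCA4 was higher in endoderm in each phase. CDCA8, borealin, was at 43.5 ± 17.05 and 66.5 ± 27.9.

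Of the mitotic kinesins 0 of 8 passed, nor did any of 7 spindle, chromosome and cytokinesis genes. KIF11, the motor that pushes spindle poles apart, was at 25.7, 5.21 and 10.6 across the hESC libraries and 8.98, 4.99 and 1.71 across the endoderm libraries, and its endoderm S value rests on 1 read. KIF20A and KIF23, kinesins of the central spindle, averaged 21.4 ± 5.50 and 16.3 ± 4.43 over the hESC libraries and 13.1 ± 7.04 and 24.2 ± 5.12 over the endoderm libraries. NUSAP1, which bundles spindle microtubules, had 9.08, 9.37 and 4.13 across the hESC libraries and 64.9, 9.98 and 39.4 across the endoderm libraries (1.92 ± 0.67 SE, limma adjusted p = 0.0916; DESeq2 adjusted p = 0.0364). PRC1, which bundles the midzone of the anaphase spindle, had 23.5, 28.1 and 31.3 across the hESC libraries and 90.5, 34.9 and 85.6 across the endoderm libraries (1.21 ± 0.43 SE, limma adjusted p = 0.0940). In both genes the endoderm G1 and S libraries were far above hESC and the G1/S library barely was. TPX2, which activates AURKA on the spindle, was at 1101 ± 277 and 1119.8 ± 261. ECT2 and ANLN, which shape the cleavage furrow, averaged 17.2 ± 6.21 and 28.8 ± 9.01 over the hESC libraries and 15.01 ± 5.54 and 25.97 ± 12.9 over the endoderm libraries.

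In total, all endoderm libraries lay above all hESC libraries for KIF1B, KIF2C, NUSAP1, PRC1 and UBE2C (5 members, against 14.7% of regions). They lay below for AURKC, CENPK, KIF22, KIF5A, KIF5C and SPC24 (6 members, against 18.7%). KIF2C, a kinesin that takes microtubules apart at the centromere, was at 93.1, 100 and 95.7 across the hESC libraries and 131, 103 and 154 across the endoderm libraries, and KIF22, a kinesin that moves chromosome arms, at 892, 857 and 708 across the hESC libraries and 412, 695 and 502 across the endoderm libraries. Both shares among the members, 7.35% and 8.82%, were below those of all regions, but after a correction for GC content 12 members (17.6%, against 16.6%) lay below.

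The remaining members were other polo-like kinases, other kinesins and a centriole protein. PLK2 and PLK3, which respond to stress and growth signals, averaged 78.01 ± 23.5 and 284 ± 93.1 over the hESC libraries and 97.2 ± 9.46 and 185 ± 24.01 over the endoderm libraries, and PLK3 was lower in endoderm in each phase. PLK5 stayed under 20 in every library. Of 12 other kinesins 1 rose and 2 fell, as given above for KIF1A, KIF5A and KIF5C, with a median log2 difference of -0.14. KIF1C had the highest signal of any member, at 1982, 2988 and 2060.4 across the hESC libraries and 3331, 3490.3 and 2239 across the endoderm libraries, higher in endoderm in each phase with overlap. KIF1B was at 593, 525 and 542 across the hESC libraries and 676, 983 and 1125 across the endoderm libraries, with every endoderm library above every hESC library (0.72, limma adjusted p = 0.106). The second KIF1B region, with far fewer reads, was at 5.30, 15.6 and 7.09 across the hESC libraries. It was at 24.9, 4.99 and 8.56 across the endoderm libraries, so the groups overlapped in that region. CENPJ, a centriole assembly protein despite its symbol, was at 10.2 ± 4.79 and 7.41 ± 5.60.

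The phases were compared next, with cell type as a term. No member passed for G1/S against G1, S against G1 or S against G1/S with limma (0% of 14657 regions in each). At an unadjusted p under 0.05 the members numbered 9, 1 and 5, against 13.7%, 3.39% and 10.6% of regions. EdgeR called 0 members (0% of regions) in each. DESeq2 called 0 members for S against G1 (0.00682% of regions), TOP2A for G1/S against G1 (1.24% of 8689 regions) and TOP2A and CENPN for S against G1/S (1.32% of 11531). These models give each phase a single effect for both cell types.

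At G1/S the members had a median log2 difference from G1 of -0.27, while the median of all regions was 0.07. Within endoderm the median of the members was -0.44, and within hESCs it was -0.00. Centring each library on its median moved all regions from 0.07 to 0.28 and the members to -0.05. The direction of the members' median turned to 0.095 after a correction for GC content (0.078 for all named regions), to 0.23 under a stricter filter that keeps 42 members (0.22 for all regions kept) and to 0.085 without the endoderm G1/S library (0.075 for all regions). Of the 68 members, 19 were lowest at G1/S in both cell types, which is 27.9%, against 18.5% of all regions. Such counts include near ties, such as CENPF in hESCs, at 21.94 for G1 and 21.86 for G1/S. Within endoderm 33 were lowest at G1/S (48.5% against 36.5%), and within hESCs 28 (41.2% against 33.0%). After a correction for GC content these were 27 in endoderm (39.7% against 32.6%) and 14 in hESCs (20.6% against 27.7%). Under the stricter filter 7 of 42 members were lowest at G1/S in both cell types (16.7% against 15.8%). Within endoderm 15 then were (35.7% against 30.7%), and within hESCs 12 (28.6% against 26.8%). At the other end 15 members were highest at G1/S in both (22.1% against 24.5%), and 9 after quantile normalisation (13.2% against 22.7%).

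TOP2A, DNA topoisomerase II alpha, which untangles sister chromatids, had the largest difference. Its region lies at chr17:35827566-35827742. The signal was 611, 67.7 and 222 across the hESC libraries and 499, 126 and 710.3 across the endoderm libraries. The G1/S library was the lowest in each cell type, at 65 and 76 reads. Its counting intervals at G1/S were 52.2 to 86.3 in hESCs and 99.6 to 158 in endoderm, far from those of the neighbouring phases. The log2 difference of G1/S from G1 was -2.56 ± 0.48 SE (limma adjusted p = 0.362, DESeq2 adjusted p = 0.000520), and that of S from G1/S was 2.09 ± 0.48 SE (limma adjusted p = 0.463, DESeq2 adjusted p = 0.0130). With each library left out in turn, the difference of G1/S from G1 ranged from -3.35 to -1.78, and its limma adjusted p was 0.00476 without endoderm G1 and 0.0630 to 0.780 in the other 5 fits. The difference of S from G1/S ranged from 1.40 to 2.78, and its limma adjusted p was 0.0211 without hESC G1, 0.0327 without endoderm G1 and 0.326 to 0.731 in the other 4 fits. After G1/S, endoderm S was above endoderm G1, whereas hESC S stayed below hESC G1.

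Another 3 members were lower at G1/S than at G1 in both cell types with counting intervals apart, 4 in all against 5.08% of regions. CENPN (chr16:79613818-79613969), which binds the centromeric nucleosome, was at 93.1, 22.9 and 201 across the hESC libraries and 70.4, 29.9 and 66.8 across the endoderm libraries. GTSE1 (chr22:45105098-45105348), a microtubule-bound protein named for its expression in G2 and S, was at 319, 187 and 212 across the hESC libraries and 318, 173 and 383 across the endoderm libraries. CCNA2 (chr4:122957042-122957284) was lowest at G1/S in hESCs but lowest at S in endoderm. The difference of S from G1/S in CENPN was 2.11 ± 0.53 SE (limma adjusted p = 0.463, DESeq2 adjusted p = 0.0459), with hESC S the highest of its 6 libraries. With each library left out in turn this difference ranged from 1.32 to 2.89, and its limma adjusted p was 0.0498 without hESC G1 and 0.0640 to 0.940 in the other 5 fits. The second CENPN region, with far fewer reads, had a G1/S difference from G1 of -0.97, in the same direction as the first. In that second region hESC S, at 7.68, was below hESC G1, at 10.6, and endoderm S was the highest library, at 20.5. Its difference between endoderm and hESC was 0.87, against -0.53 for the first region.

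Higher at G1/S than at G1 in both cell types, with intervals apart, were BIRC5, CDC20, CENPB, CENPH, CENPM, MAD2L2 and TPX2 (7 members, against 11.9% of regions). BIRC5 had a signal of 934, 1545 and 1297 across the hESC libraries and 713, 1239 and 971 across the endoderm libraries, CDC20 one of 939.6, 1282 and 1039.6 across the hESC libraries and 791, 1622 and 1378 across the endoderm libraries and TPX2 one of 854, 1400.3 and 1048 across the hESC libraries and 845, 1364 and 1150.2 across the endoderm libraries. All 3 have roles in mitosis proper, and all 3 were highest at G1/S. CENPH, a partner of CENPK in the centromere network, was at 639, 992 and 611 across the hESC libraries and 414, 702 and 337 across the endoderm libraries, and CENPM, of the same network, at 213, 355 and 201 across the hESC libraries and 238, 319 and 188 across the endoderm libraries. CENPB, which binds a motif in centromeric satellite DNA, was at 873, 1341 and 631 across the hESC libraries and 826, 1234 and 993 across the endoderm libraries. The log2 differences from G1 lay between 0.56 for MAD2L2 and 0.76 for BIRC5, each with a limma adjusted p of at least 0.362. The second region of BIRC5 had a difference of 1.16.

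**Figure D3:**
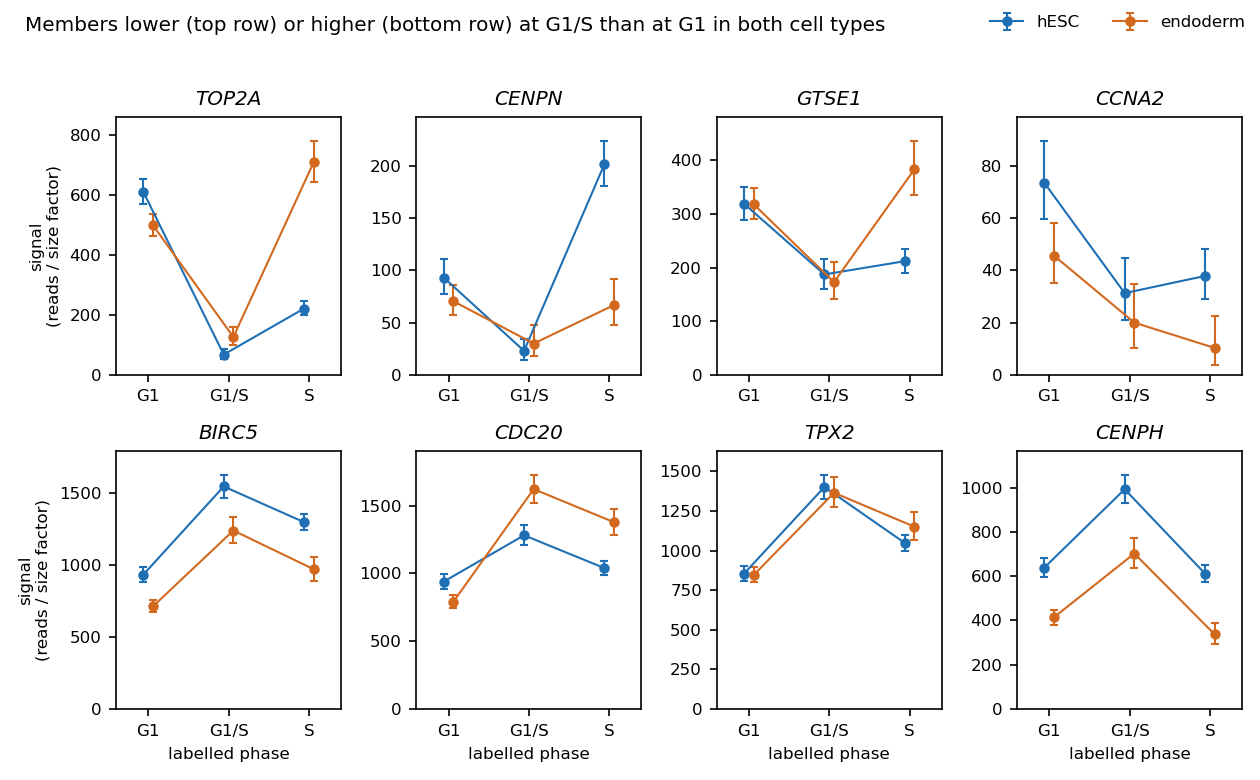
Signal (reads divided by size factor, linear axis from 0) by labelled phase, hESC in blue and endoderm in orange, with 95% counting intervals, for 4 members lower (top row) and 4 members higher (bottom row) at G1/S than at G1 in both cell types. TOP2A dips to 67.7 and 126, and BIRC5, CDC20, TPX2 and CENPH peak at G1/S.

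Promoters of members that differed in opposite directions at G1/S are shown here, to set their late cell cycle motifs side by side. RefSeq (GRCh38.p14) gave a promoter of 300 bases, 250 before and 50 after the start, for 56 of the 68 members. The bases before the start are printed 5′ to 3′ on the strand of the gene. Capitals mark the CHR forms TTTGAA and TTCGAA and the CCAAT box on either strand (TTCAAA and ATTGG are the reverse complements of TTTGAA and CCAAT), and no marked match overlaps another. The first 3 genes were lower at G1/S than at G1 in both cell types and CDC20 was higher.
TOP2A (chr17:40417897-40418146, minus strand): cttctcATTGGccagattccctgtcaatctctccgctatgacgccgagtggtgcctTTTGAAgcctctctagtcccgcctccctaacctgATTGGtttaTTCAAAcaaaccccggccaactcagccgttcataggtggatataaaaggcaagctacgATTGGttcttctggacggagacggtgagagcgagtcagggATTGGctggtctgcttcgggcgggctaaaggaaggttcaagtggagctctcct
GTSE1 (chr22:46296620-46296869, plus strand): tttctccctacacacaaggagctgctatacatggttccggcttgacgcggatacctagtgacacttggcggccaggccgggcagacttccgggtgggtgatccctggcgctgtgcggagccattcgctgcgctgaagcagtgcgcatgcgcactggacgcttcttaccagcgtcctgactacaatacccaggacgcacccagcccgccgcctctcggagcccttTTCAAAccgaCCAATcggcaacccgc
CCNA2 (chr4:121823884-121824133, minus strand): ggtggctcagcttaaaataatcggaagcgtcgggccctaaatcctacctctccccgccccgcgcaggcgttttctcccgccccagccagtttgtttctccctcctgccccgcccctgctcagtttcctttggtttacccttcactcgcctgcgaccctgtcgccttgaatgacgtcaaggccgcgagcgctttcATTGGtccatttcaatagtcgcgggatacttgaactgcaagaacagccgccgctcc
CDC20 (chr1:43358731-43358980, plus strand): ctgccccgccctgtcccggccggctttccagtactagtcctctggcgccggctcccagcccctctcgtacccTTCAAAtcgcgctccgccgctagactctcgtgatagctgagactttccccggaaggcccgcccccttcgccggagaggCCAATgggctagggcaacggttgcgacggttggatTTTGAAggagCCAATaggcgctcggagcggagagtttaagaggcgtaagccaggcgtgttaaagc
TOP2A holds 2 matches to TTTGAA and 4 to CCAAT, GTSE1 holds 1 of each, and CDC20 holds 2 of each. CCNA2 holds 1 CCAAT and neither TTTGAA nor TTCGAA, and other variants of the CHR were not searched. TOP2A and GTSE1, low at G1/S, and CDC20, high there, thus carry the same 2 motifs. Of 10 members with a promoter that were highest at G1/S in both cell types, CDC20 alone held a CHR form. BIRC5, CENPH, CENPM, PLK5 and TPX2 were also highest there but had no promoter entry, so they were not searched.

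Over all members with a promoter, TTTGAA occurred in 26 of 56 (46.4%), against 15.2% of 35116 RefSeq promoters of the same length. TTCGAA occurred in 5 (8.93% against 1.45%) and CCAAT in 35 (62.5% against 34.6%). A CHR form together with CCAAT was found in 25 (44.6% against 6.38%). Among the 10 kinesins with a promoter that were not listed as mitotic, only KIF5B held a CHR form, and among the remaining 46 members 28 did. Of the members with a promoter that were lowest at G1/S in both cell types, 13 of 17 held a CHR form. Of those with a promoter that were highest there 1 of 10 did, which was CDC20. Among the other genes of the table these shares were 11.0% of 1625 genes lowest at G1/S, 8.12% of 1946 genes highest there and 9.61% of 7275 genes in all. The 29 members with a CHR form had a median G1/S difference from G1 of -0.77, and the 27 without had one of 0.04. Those 10 kinesins, apart from KIF5B, are all in the group without, and the medians were not corrected for GC content. A match describes letters in this window, and a missing match says nothing about a factor.

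In endoderm more members dipped at G1/S. With counting intervals apart, 18 members were lower at G1/S than at G1 in endoderm (26.5%, against 18.2% of regions), and 10 in hESCs (14.7% against 17.7%). These counts were not corrected for GC content. CENPF in endoderm had a signal of 78.7, 18.3 and 85.6, while its hESC values were 21.9, 21.9 and 25.99. CDC2, CCNB1, NUSAP1 and PRC1, given above, were likewise high at G1 and S and low at G1/S in endoderm, with no such dip in hESCs. The hESC values rest on 12, 9 and 7 reads for NUSAP1 and 3, 4 and 19 for CCNB1, too few to show a dip well. KIF3B, a subunit of the heterotrimeric kinesin of cilia, was at 44.9, 1.66 and 42.8 in endoderm, with 1 read at G1/S. KIF18B, a kinesin of astral microtubules, was at 23.5 in endoderm G1 and 20.5 in S and had 0 of 3205025 reads at G1/S, for which the floor of 3 reads is a signal of 4.99 and the 95% counting interval reaches 6.14. The endoderm G1/S library is among the shallower ones, so these low values are imprecise.

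In hESCs other members were higher at G1/S than at G1. These numbered 21 with intervals apart (30.9%, against 22.8% of regions), and in endoderm 13 were higher (19.1%, against 21.8%). PLK1 stood at 71.9 in hESC G1 and 214 in G1/S, while in endoderm it was 215 and 178. CCNB2 stood at 130.1 and 306 in hESCs, against 267 and 258 in endoderm. CDCA3, which takes part in mitotic entry, stood at 19.7 and 59.3, against 64.2 and 36.6. In these genes hESC G1 was the lowest of all 6 libraries. CENPV, a centromere protein of the passenger pathway, was higher at G1/S in hESCs and lower in endoderm, with 77.2, 147 and 101 across the hESC libraries and 188, 105 and 223 across the endoderm libraries. CENPV, KIF26A, KIF3C and KIF5B differed in opposite directions in the 2 cell types with intervals apart (4 members, against 3.60% of regions). With 1 library per type and phase, the difference between the cell types in these courses was not tested.

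**Figure D4:**
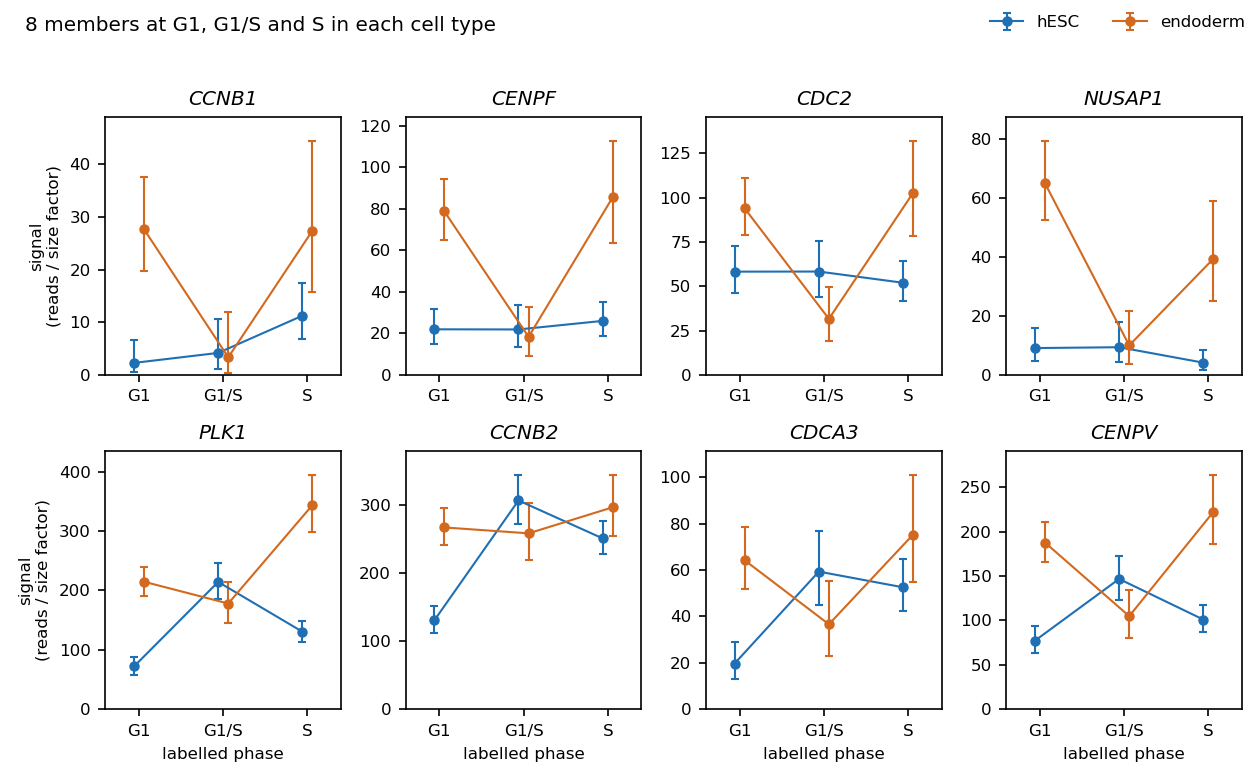
Signal (reads divided by size factor, linear axis from 0) by labelled phase for 8 members, hESC in blue and endoderm in orange, with 95% counting intervals. CCNB1, CENPF, CDC2 and NUSAP1 dip at G1/S in endoderm and show no such dip in hESCs, where CCNB1 and NUSAP1 rest on few reads. PLK1, CCNB2, CDCA3 and CENPV are higher at G1/S than at G1 in hESCs.

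The GC content of the transcript end moved with the G1/S difference. Over the last 500 transcript bases, the median GC content was 42.1% in the 19 members lowest at G1/S in both cell types, 54.6% in the 15 highest there, 44.6% in all members and 49.5% in all named genes. Spearman's rho between GC content and the G1/S difference from G1 was 0.37 over the 68 members and 0.47 over 9897 named regions. For single libraries, rho was taken between GC content and the deviation of each named region from its mean over the 6 libraries. It was -0.007, 0.42 and -0.12 across the hESC libraries and -0.40, 0.26 and -0.15 across the endoderm libraries. All these values describe genes within the same libraries, which are not independent. After a correction for GC content the median of the members was 0.10 for G1/S against G1, beside 0.08 for all named regions. Then 9 members were lowest at G1/S in both cell types (13.2%, against 14.0%), among them TOP2A, CENPN, CDCA5, KIF4A and KIF18B, and TOP2A had a difference of -1.97.

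**Figure D5:**
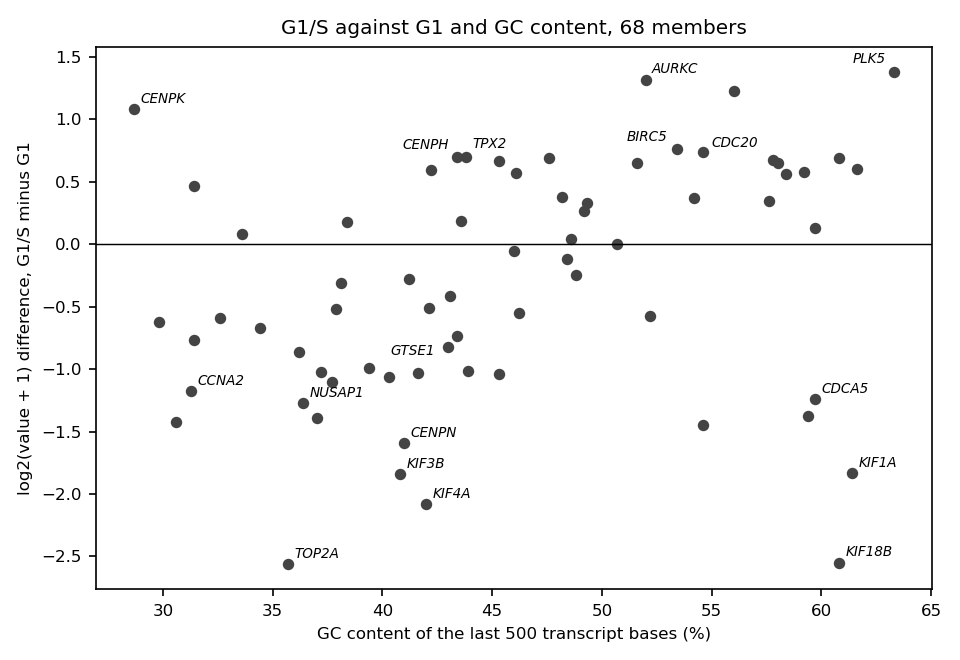
Difference of G1/S from G1 on the log2(signal + 1) scale against the GC content of the last 500 transcript bases, with 1 point for each of the 68 members. Spearman's rho is 0.37, and TOP2A is the lowest point at -2.56.

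Between S and G1 the members had a median log2 difference of -0.02, against 0.00 for all regions. Higher at S in both cell types, with intervals apart, were BIRC5, CDCA4, PLK1 and TPX2 (4 members, against 3.81% of regions), and CCNA2 alone was lower in both (2.67% of regions). In PLK1 the hESC S library stood at 131 beside 71.9 at G1, and the endoderm S library at 344 beside 215 (0.76, limma adjusted p = 0.982). CCNA2 had a difference of -1.49 (limma adjusted p = 0.982). In hESCs 13 members were higher at S (22.1% of regions) and 14 lower (20.1% of regions), and in endoderm 15 were higher (15.2% of regions) and 7 lower (12.4% of regions). AURKB, CENPB, CENPT, KIF17, KIF1A, KIF5B, MAD2L2 and TOP2A were lower in hESCs and higher in endoderm (8 members, against 9.44% of regions). AURKA stood at 52.96 and 119 in hESCs, and CCNB1 and CDCA8 were also higher at S there. In endoderm, CENPO and CENPT, subunits of the centromere network, and KIF1B, a motor for mitochondria and vesicles, were higher at S. MAD2L1, KIF26A, CDC25B and SPC24 were lower at S in endoderm with intervals apart, MAD2L1 at 35.9, 19.96 and 11.98 and KIF26A, a kinesin without motor activity, at 932, 749 and 344.

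Between S and G1/S the median of the members was 0.22, against -0.04 for all regions. It turned to -0.17 under the stricter filter (-0.18 for all regions kept) and to -0.073 after the correction for GC content (-0.095 for all named regions). CDCA8, CENPN and TOP2A were higher at S in both cell types with intervals apart (3 members, against 4.16% of regions). BIRC5, CDC20, CENPB, CENPH, CENPM, KIF1C, KIF22, KIF26A, MAD2L2 and TPX2 were lower (10 members, against 10.6%). In endoderm 17 members were higher at S than at G1/S (25.0%, against 11.2%), and in hESCs 7 (10.3%, against 19.1%). In endoderm 12 were lower (17.6%, against 15.8%), and in hESCs 20 (29.4%, against 22.6%). CDC25B, CDCA4, CENPV and PLK1 differed in opposite directions in the 2 cell types (4 members, against 2.07% of regions). Both phase comparisons with G1/S share the G1/S libraries, so the 2 sets of values are not independent.

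Other genes of the pathway were described from 5 lists of non-members. Of 91 genes 71 were measured, and in endoderm 2 rose and 0 fell, against 6.90% and 7.60% of all regions. RAD21, the cohesin subunit that is cut at anaphase, had a signal of 108, 38.5 and 76.2 across the hESC libraries and 204, 115 and 207 across the endoderm libraries (log2 difference 1.30 ± 0.31 SE, limma adjusted p = 0.0344). TUBB, a beta tubulin with close relatives and pseudogenes that could share its reads, had 709.6, 269 and 469 across the hESC libraries and 1275, 436 and 1631 across the endoderm libraries (1.11 ± 0.29 SE, limma adjusted p = 0.0441). Both were lowest at G1/S in each cell type. By list, 1 of 19 condensin and cohesin genes and 1 of 18 other spindle and cytokinesis genes passed, and 0 of 11 genes of the anaphase-promoting complex, 0 of 15 other kinetochore genes and 0 of 8 genes of mitotic entry and transcription. In the phase comparisons 0 of 71 passed, with a median G1/S difference from G1 of -0.57, against -0.27 for the members and 0.07 for all regions. As given above, the median of the members changed direction after the GC correction and under the stricter filter. The median of the 71 genes was not computed under either.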

How the data were processed

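Each library's polyadenylated RNA was read at transcript ends. The deposited table gives 1 linear signal per region and library, and its values are whole reads divided by a size factor in all 6 libraries (tolerance 1e-06). Per the submitters' processing notes, CASAVA 1.5, Bowtie 0.12.7, DESeq 1.5.24 and the builds hg18 and NCBI36 were used by the authors, with no roles given. The table's name speaks of stabilised variance, which its values do not show, so log2(signal + 1) was taken. Regions with at least 1 on that scale in 3 libraries were kept (14657, with 29 removed).

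Cell type and phase were fitted together with limma 3.58.1 (R 4.3.3, trended variance, 2 residual degrees of freedom), with Benjamini-Hochberg adjustment over all regions and a threshold of 0.05. EdgeR 4.0.16 and DESeq2 1.42.0 were run on the recovered reads. Exact Poisson intervals, GC content and promoter motifs were computed with Python 3.11.15, pandas 2.3.3 and SciPy 1.17.1. The main limma fit was tested on simulated data, for endoderm against hESC and G1/S against G1 only. EdgeR, DESeq2 and the alternative fits were not. Alternatives were other pseudocounts, filters, scalings, a GC correction, summed regions, each library left out, and the fit without phase.

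Members and lists were chosen with earlier results of these data known. Named were members past the threshold, the 6 largest differences per direction and comparison with a mean signal of at least 20, and 32 fixed genes. Other members named beside a count or a role were chosen after their values were seen.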

Additional observations from a re-analysis of the deposited data

Results flagged for a closer look

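For 11 members the 2 cell types went in opposite directions between G1 and a later phase, with counting intervals apart in each. Each rests on 1 library per phase and cell type, and the difference between the cell types was not tested. Between S and G1 this held for 8 members, while 9.44% of all regions showed it. KIF5B, a motor that carries organelles, had the widest gap, at a log2 difference of -2.76 in hESCs and 1.88 in endoderm, 4.65 apart. AURKB was 4.10 apart (-1.17 and 2.93), with 2 reads in endoderm G1. KIF1A was 3.37 apart (-2.02 and 1.35) and TOP2A 1.97 apart (-1.46 and 0.51). The centromere genes CENPT and CENPB were 1.66 and 0.73 apart, MAD2L2 was 1.24 apart, and KIF17, a motor of dendrites and cilia, was 1.18 apart, each lower at S in hESCs and higher at S in endoderm.

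Between G1/S and G1 it held for 4 members, while 3.60% of all regions showed it. KIF5B was again lower in hESCs (-1.03) and higher in endoderm (1.95), 2.98 apart. CENPV was higher in hESCs (0.92) and lower in endoderm (-0.84), with a gap of -1.75. KIF26A and KIF3C, a neuronal kinesin, had the same order, with gaps of -0.89 and -0.61. Both comparisons share the G1 libraries.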

How the results depend on the processing

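With 1 library per cell type and phase, leaving out a library leaves its phase on 1 cell type. The 4 calls between endoderm and hESCs became 0 to 7 that way, 0 without both G1/S libraries, and 1 with a stricter filter, without a variance trend or with edgeR. Phase served as the pairing of the libraries, and without this block there were 2 calls. The fits differed in the share of all regions they called, given above for each library left out, edgeR and DESeq2. The shares of the other fits are not given here. These counts alone therefore do not show a change particular to the members. Leaving out a library gave 0 to 1 call for G1/S against G1 and 0 to 2 for S against G1/S, and DESeq2 gave 1 and 2. The median for S against G1 was 0.058 with the stricter filter, 0.039 after quantile normalisation, 0.11 after the GC correction and -0.073 to 0.31 with a library left out. The median for G1/S against G1 was 0.23 with the stricter filter (0.22 for all regions), 0.095 after the GC correction and -0.44 to 0.085 with a library left out. The median for S against G1/S was -0.17 with the stricter filter, 0.035 after median centring, -0.073 after the GC correction and 0.052 to 0.30 with a library left out. Members lowest at G1/S in both cell types numbered 9 after the GC correction (13.2%, against 14.0% of named regions). With the stricter filter they numbered 7 of 42 (16.7%, against 15.8% of regions kept). Both of these counts were chosen after seeing the data. Members lower in endoderm in all 3 phases numbered 11 of 42 with that filter, which tests fewer genes (26.2%, against 26.3%). The cause of the other shifts was not tested.

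Small differences between endoderm and hESCs changed sign when a library was left out, with ranges of -0.0029 to 0.63 for CCNB2 and -0.088 to 0.64 for BUB1 (lowest without a G1 library), and of -0.26 to 0.65 for BUB3 and -0.55 to 0.13 for CDC25C (BUB3 lowest and CDC25C highest without a G1/S library). The ranges were -0.092 to 0.82 for CDC2, -1.03 to 0.035 for CDC25B, -0.47 to 0.093 for ANLN and -0.026 to 0.060 for TPX2, each turned by an S library. Without both G1/S libraries CDC25C was at 0.13, BUB1 at -0.046 and BUB3 at -0.26. TPX2 was at -0.067 after quantile normalisation, -0.0074 after median centring, -0.081 after the GC correction and -0.023 with edgeR. Between phases, the ranges were -0.071 to 1.67 for CDCA3 (S against G1, lowest without hESC G1), -1.51 to 0.20 for CDC25B (S against G1, highest without endoderm S), -3.88 to 0.20 for KIF3B and -2.65 to 0.11 for NUSAP1 (G1/S against G1, both highest without endoderm G1/S), and -2.48 to 0.68 for KIF5B (S against G1/S, highest without hESC S).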
